A study of Homo sapiens with 3 samples.

Results

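Chromosome 20, a small human chromosome with arms of similar length, held 837 of the 23641 peaks of 8-oxo-7,8-dihydro-2'-deoxyguanosine (8-oxodG) in the list. The members were all rows on this chromosome in build hg18, on either arm, with 293 peaks on the short arm (20p) and 544 on the long arm (20q). The study mapped 8-oxodG in MCF10A, an established breast epithelial cell line that does not form tumours, arrested in G0, in which cells rest and do not divide. The cells had no treatment and were grown for 48 hours in medium with 5% horse serum, and sonicated genomic DNA was pulled down with an antibody against 8-oxodG before sequencing. The 3 samples, from 2 experiments, form 1 group and share 1 deposited list, so the peaks have no value per sample. The labels give no other cell line or state for comparison.

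8-oxodG forms when reactive oxygen species attack guanine, the most easily oxidised base of DNA. Left in place, it can pair with adenine and turn a G:C pair into T:A at the next replication. The glycosylase OGG1 cuts it out in base excision repair, and MUTYH removes an adenine placed opposite to it. An antibody map counts fragments that carry the lesion, and so reads its level together with how much DNA of each region is in the library.

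Each peak has a pileup, the number of sequenced fragments stacked at its highest point (the summit), and a fold enrichment over the local background. From these, the background under the summit was derived, in fragments. Peaks of the list had at least 7.001-fold enrichment. Intervals below are exact at 95% and cover counting error only. No spread between samples could be had, so no difference below has a test over samples, and ranks among the 22 autosomes are descriptions. Where peaks cluster, counting intervals are too narrow.

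Chromosome 20 was among the most densely marked autosomes. It carried 14.07 peaks per sequenced Mb (interval 13.1 to 15.1), ranking 2 of 22, against 8.30 (8.19 to 8.41) on the other 21 autosomes together. The ratio was 1.69 (1.58 to 1.82). Peaks covered 473 kb, or 0.795% of its sequence, against 0.448% elsewhere. Chromosomes 22 (14.06) and 16 (14.02) differed from it by less than the counting error, with ratios of 1.00 (0.894 to 1.12) and 1.00 (0.916 to 1.10). Chromosome 19 was far denser at 25.6, and chromosome 21, the next below, had 9.95.

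The arms differed from each other. The density was 16.4 per Mb on 20q (15 to 17.8) and 11.16 on 20p (9.92 to 12.5), a ratio of 1.47 (1.27 to 1.70). Among 40 autosome arms with a peak, 20q ranked 4 and 20p ranked 9. The arm of rank 3 is 21p, which had 9 peaks in 0.490 Mb of sequence. The difference did not rest on the end of 20q: without the terminal band 20q13.33, an omission chosen after seeing the data, 20q was still 1.33 times as dense as 20p.

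Background was higher on chromosome 20 than on most autosomes. Its median at summits was 1.42 fragments (quartiles 1.04 and 2.20), against 0.975 (0.723 and 1.42) on the other autosomes, a ratio of 1.45. The arms, which differed in density, had the same median background of 1.42. The intervals were 1.26 to 1.42 on 20p and 1.38 to 1.51 on 20q. Backgrounds fall on steps, so equal medians can be ties, and above the median the arms differed. The upper quartile was 1.95 fragments on 20p and 2.36 on 20q, and the 90th percentile 2.83 and 3.30. For the whole chromosome the 10th percentile lay at 0.786, against 0.535 on the other autosomes. Only 3 of the 837 peaks (0.358%) stood at 0.460, the lowest background in the list, where 3.96% of the peaks of the other autosomes stood. These were in 20p12.3 (start 7946994), 20q13.2 (53189277) and 20q13.33 (60517324), with pileups of 16, 15 and 29 fragments. The share of peaks at this value was also low on chromosome 8 (0.151%), chromosome 16 (0.995%) and 19q (0.112%), which have a like median background.

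Dividing the counts of each arm by its median background lowered the ratio of chromosome 20 to the other autosomes from 1.69 to 1.19. More copies of the chromosome in the cells and more 8-oxodG per copy cannot be told apart in this list.

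**Figure D1:**
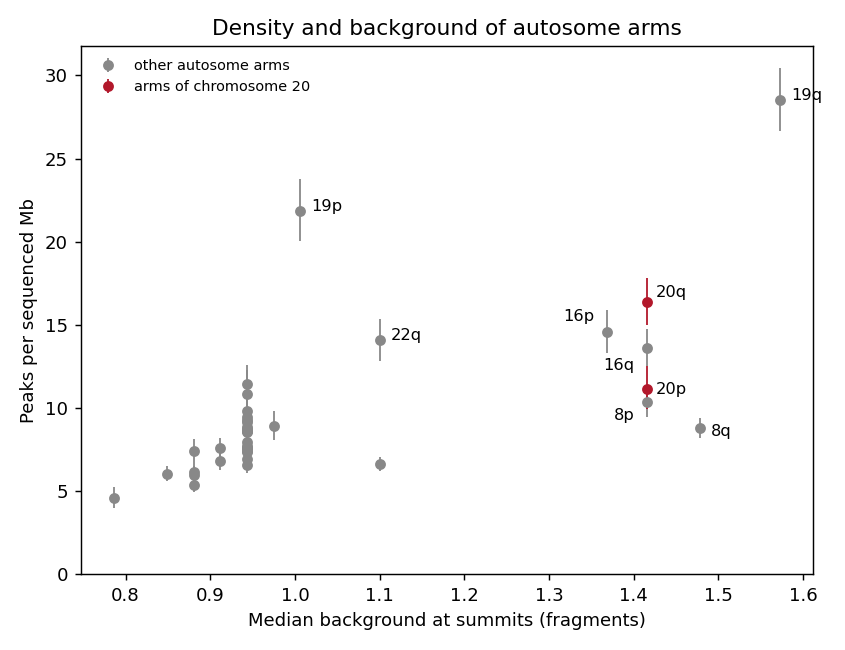
Peaks per sequenced Mb (vertical, bars are 95% Poisson intervals) against the median background at summits in fragments (horizontal) for autosome arms with over 100 peaks, with the arms of chromosome 20 in red. Both red points stand at 1.42 fragments, beside those of chromosomes 8 and 16, with 20q at 16.4 and 20p at 11.16 peaks per Mb.

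Other arms with a like background differed widely in density. Chromosome 8 had the same median background as chromosome 20, 1.42 fragments, and 9.26 peaks per Mb, so that chromosome 20 was 1.52 times as dense (1.39 to 1.66). This difference lay in the long arms. 20q was 1.87 times as dense as 8q (1.67 to 2.08), while 20p and 8p, at 11.16 and 10.4, differed by less than the counting error (ratio 1.08, 0.926 to 1.25). Against chromosome 16 the arms went opposite ways: 20q was 1.20 times as dense as 16q (1.07 to 1.35), and 20p was 0.766 times as dense as 16p (0.661 to 0.886). The long arm of chromosome 19, with a median background of 1.57, was denser than 20q, at 28.5 (ratio of 20q to 19q 0.574, 0.515 to 0.639).

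Peak density and gene number ordered the autosomes alike in part. Chromosomes 19, 22 and 16 held ranks 1, 3 and 4 in peaks per Mb and in coding genes per Mb. Chromosome 20, at rank 2 in peaks, has 537 protein-coding genes in the RefSeq table, or 9.02 per sequenced Mb, ranking 7 of 22. Chromosome 17, with 15 coding genes per Mb, had 9.63 peaks per Mb. Per 100 coding genes, chromosome 20 had 156 peaks (rank 5), chromosome 17 had 64.1 and chromosome 19 had 98.4. Per 100 genes of all types it had 56.7 (rank 1) and chromosome 19 had 52.9 (rank 3).

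The rise was spread along the chromosome. Of its 59 windows of 1 Mb, 52 held more peaks than the median window of the other autosomes, which had 7. On those autosomes 40.4% of 2633 windows did. The lowest window of chromosome 20 had 3 peaks, the median 13 and the highest 38, and 5 windows lay under 7. No window was empty, but only 18 of the 2633 on the other autosomes were, so their absence among 59 says little. The variance-to-mean ratio over windows was 2.99, ranking 15 of 22, and the SD of 6.45 was 0.463 times the mean, the lowest such share of the 22. With the part that counting alone gives subtracted, this share was 0.378 and ranked 19. Chromosomes 3, 13 and 15 had lower shares, of 0.371, 0.353 and 0.342.

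**Figure D2:**
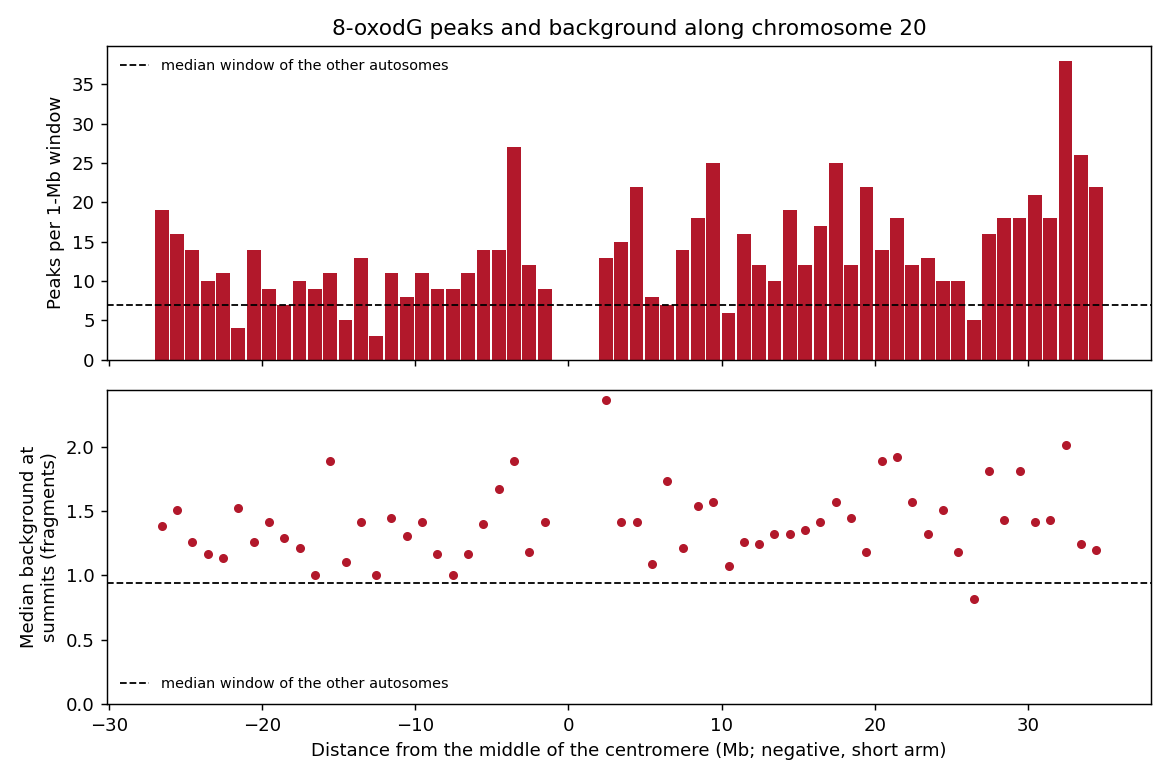
Peaks per window of 1 Mb (top) and the median background at their summits in fragments (bottom) along chromosome 20, by distance from the middle of the centromere in Mb, with the short arm negative. Dashed lines mark the median window of the other autosomes (7 peaks, 0.944 fragments), and 52 of 59 windows lie above the first and 58 of 59 above the second.

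The median background of a window was above 0.944 fragments, that of the median window elsewhere, in 58 of 59 windows of chromosome 20 and in 43.4% of windows on the other autosomes. The lowest was 0.818 fragments, in the window from 53 Mb in 20q13.2, which also had few peaks (5). The highest was 2.36, in the window from 29 Mb beside the centromere in 20q11.21. Across the 59 windows, peak number and background rose together (Spearman's rho = 0.451). Both come from the same fragments and the same list, and neighbouring windows are alike.

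The windows with most peaks stood at the end of 20q and at few places inside. The window from 59 Mb in 20q13.33 held 38 peaks (interval 26.9 to 52.2), with pileups of 12 to 132 fragments and a median background of 2.01. Next were the windows from 23 Mb in 20p11.21 (27 peaks, background 1.89) and from 60 Mb in 20q13.33 (26 peaks, 1.24). Those from 36 Mb in 20q11.23 and from 44 Mb in 20q13.12 had 25 peaks each, with a background of 1.57 in both. The window at 23 Mb was the densest of the short arm. The windows with fewest peaks were from 14 Mb in 20p12.1 (3 peaks), 5 Mb in 20p12.3 (4), 12 Mb in 20p12.1 (5), 53 Mb in 20q13.2 (5) and 37 Mb in 20q11.23 to 20q12 (6). Of these 5 windows, 4 lay wholly in dark bands.

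Sequence without any peak came in short stretches. The 3 longest measured 0.548 Mb in 20p12.3 (chr20, 7239925 to 7788101), 0.477 Mb across 20q13.2 and 20q13.31 (54239219 to 54716676) and 0.458 Mb in 20p12.1 (13789569 to 14247859). Whether reads map there was not tested. Neighbouring peaks lay a median of 38930.5 bp apart on chromosome 20, with 49975.8 bp on 20p and 34891.5 bp on 20q, against 63351 bp on the other autosomes. Pairs within 10 kb were 12.7% on 20p, 20.3% on 20q and 14.4% elsewhere.

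Giemsa staining sorts chromosomes into light bands (gneg), which are rich in genes and replicate early, and bands of growing darkness (gpos25 to gpos100), which are poorer in genes and replicate late. Chromosome 20 has 18 stained bands, none of the darkest class, and 32.1% of its sequence in the dark class gpos75, against 13.9% on the other autosomes. All 18 lay above the median band of their own stain elsewhere. Set against the pooled density of that stain 17 did, the exception being 20q11.22 (7.92 per Mb against 11.3). Had each class had its density on the other autosomes, chromosome 20 would have held 517 peaks, or 8.68 per Mb. It held 1.62 times this number (1.51 to 1.73).

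Light bands had 16.9 peaks per Mb on chromosome 20 and 9.43 on the other autosomes (ratio 1.79, 1.63 to 1.96). Dark gpos75 bands had 9.63 and 6.43 (ratio 1.50, 1.28 to 1.74). For gpos25 the ratio of 1.15 (0.931 to 1.41) did not exceed the counting error. For gpos50, with 1 band on chromosome 20 (20q13.32), it was 2.45 (1.76 to 3.32). Density did not fall steadily with darkness, since gpos25 bands of the other autosomes had 11.3 peaks per Mb, more than their light bands. The step from dark to light was 1.75 on chromosome 20 (1.48 to 2.09) and 1.47 on the others (1.4 to 1.54), with intervals that overlap.

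**Figure D3:**
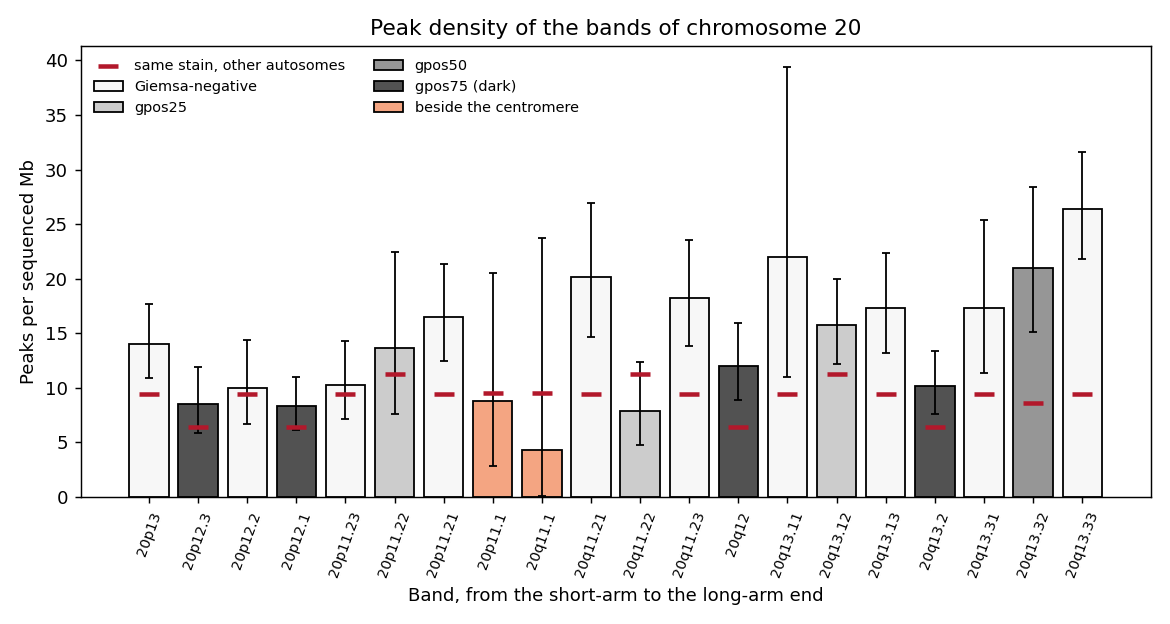
Peaks per sequenced Mb (vertical) for the bands of chromosome 20 in order from the short-arm to the long-arm end, shaded by stain, with 95% Poisson intervals. Red marks give the pooled density of the same stain on the other autosomes. The highest bands lie on the long arm, up to 26.4 in the light band 20q13.33, and include the gpos50 band 20q13.32 at 21.

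The arms differed beyond counting error in their light bands. These together had 20.7 peaks per Mb on 20q (6 bands, 315 peaks) and 12.9 on 20p (4 bands, 190 peaks), a ratio of 1.60 (1.33 to 1.93). In gpos75 bands the values were 11 and 8.38 (ratio 1.31, 0.970 to 1.77), which is within counting error. In gpos25 and gpos50 bands together they were 14.8 and 13.6 (ratio 1.08, 0.632 to 1.99). These bands make up 25.9% of 20q and 4.19% of 20p. The intervals of these ratios overlap, so a difference confined to light bands is not shown. Band 20q13.33, the gene-rich end of the long arm, stood highest with 116 peaks in 4.40 Mb, or 26.4 per Mb (21.8 to 31.6). It held 13.9% of the chromosome's peaks on 7.39% of its sequence, and 98.2% of light bands elsewhere were less dense. Among 39 outermost bands of autosome arms it ranked 5. Its neighbour 20q13.32, the band of the imprinted GNAS locus, had 21 (15.1 to 28.4), and 20q13.31 had 17.3.

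Further in on 20q, the small light band 20q13.11 had 11 peaks in 0.5 Mb (22 per Mb, 11 to 39.4). Band 20q11.21, next to the centromere and the band of the survival gene BCL2L1, had 20.2 per Mb (14.7 to 27.0). Bands 20q11.23, the band of the tyrosine kinase gene SRC, and 20q13.13 had 18.2 and 17.4. Band 20q13.12, the band of the matrix protease gene MMP9, had 15.7. The dark bands were lower, with 12 in 20q12 and 10.2 in 20q13.2, the band of ZNF217, which is amplified in breast cancers. Even so, 97.5% and 92.6% of gpos75 bands elsewhere were less dense than these. The lowest stained band of the long arm was 20q11.22 at 7.92 (4.77 to 12.4).

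Among the stained bands of 20p the highest density was in 20p11.21, not in the terminal band, but their intervals overlap. The last 2 Mb of 20p alone had 17.6 peaks per Mb (12.2 to 24.4). The pericentromeric band 20p11.1 had 8.81 (2.86 to 20.6). Band 20p11.21, which holds the cystatin protease inhibitor genes, had 16.5 peaks per Mb (12.4 to 21.4), and the terminal band 20p13 had 14.0 (10.9 to 17.7), ranking 26 of the 39 outermost bands. Bands 20p11.22, 20p11.23 and 20p12.2, the last being the band of the Notch ligand gene JAG1, had 13.6, 10.3 and 10. The dark bands 20p12.3, the band of the replication clamp gene PCNA, and 20p12.1, the band of the very long gene MACROD2, had 8.50 and 8.31. Genes are named here by band only. Their positions on hg18 were not used, and no peak was assigned to a gene.

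Near its tip, 20q had more peaks per Mb than other arms. In the last 2 Mb it had 24.2 peaks per Mb (17.6 to 32.3) and at 2 to 5 Mb from the end 27.7 (22 to 34.3), against 17.2 (16.2 to 18.2) and 17 on 36 other arms, the intervals in the last 2 Mb overlapping. At 5 to 10 Mb it had 13.8 (10.7 to 17.5), close to the 13.1 elsewhere, and at 10 to 20 Mb 15.4 (13.1 to 18.0) against 9.70. 20p had 17.6 (12.2 to 24.4) in its last 2 Mb, within counting error of other arms, then 11.7 (8.13 to 16.2) and 8.80 (6.39 to 11.8), both lower than other arms beyond the counting error. At 10 to 20 Mb it had 8.90 (7.15 to 11), within counting error.

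Heights and covered shares also varied by band. The median pileup of a stained band was highest in 20q13.32 (46.5 fragments, interval 33 to 60), 20q13.31 (41, 31 to 58) and 20q13.13 (40, 32 to 50). It was lowest in 20p11.23 (23, 20 to 38) and 20q13.11 (24, 16 to 100, 11 peaks). These intervals overlap, so the order is not resolved. Peaks covered 2.24% of the sequence of 20q11.21, most of it under 3 very wide peaks described below, 1.73% of 20q13.33 and 1.38% of 20q13.32. The dark bands 20p12.3 and 20p12.1 had 0.398% and 0.427%, and 20q11.22, the lowest, 0.388%. The pericentromeric bands held 5 peaks (20p11.1) and 1 peak (20q11.1), at 7.48 peaks per Mb together against 9.53 on other autosomes, a ratio of 0.785 (0.285 to 1.74) within counting error.

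Across the 18 stained bands, the median background ran from 1.16 fragments in 20p11.23 to 1.60 in 20q13.13, above the 0.944 of the median band elsewhere in all 18. Denser bands tended to have more background (rho = 0.518) and wider peaks (rho = 0.704), and had little relation to fold enrichment (rho = 0.209). The widest medians were 611 bp in 20q13.32, 591 bp in 20q13.31 and 568 bp in 20q13.33, and the narrowest 424 bp in 20p12.2. These correlations over bands are descriptions, since bands share the library and their neighbours' sequence.

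Peaks of chromosome 20 were taller than those of the other autosomes and hardly wider. The median pileup was 33 fragments (interval 31 to 36) against 25, a ratio of 1.32, ranking 2 of 22. It was 30 on 20p and 34 on 20q. The median width was 468 bp (460 to 485) against 452 bp. On 20p it was 452 bp (441 to 466), equal to the other autosomes, and on 20q 488 bp (467 to 503). Fold enrichment, (pileup + 1) / (background + 1), had a median of 12.35 (11.7 to 13) against 11.7 (11.6 to 11.8). Peaks at least 1 kb wide numbered 50, or 5.97%, against 5.61% on the other autosomes. Of these 50, 41 lay on 20q and 20 in 20q13.33. As a share of all peaks there, such wide peaks were 3.07% on 20p, 7.54% on 20q and 17.2% in 20q13.33. The 50 wide peaks had a median background of 3.02 fragments and a median pileup of 74.

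Set beside peaks of like background, the difference in height nearly went and that in width turned. Within 10 classes of background the pileup ratio averaged 1.04 and the width ratio 0.918. Background was itself derived from pileup and fold enrichment. At equal background the pileup ratio therefore restates the ratio of fold enrichment and is not a further result. In the class of highest background, above 2.36 fragments, the median width was 697 bp on chromosome 20 and 799 bp elsewhere. The pileup was 55.5 against 50. Backgrounds in this class reach 7.86 fragments on chromosome 20 and 37.4 elsewhere, so they are not closely matched within it. The same class held 168 peaks of chromosome 20, or 2.82 per Mb, 3.77 times the density elsewhere. In the lowest class, up to 0.550 fragments, chromosome 20 held 9 peaks and the ratio of densities was 0.175. These density ratios restate the higher background and density of chromosome 20 given above and are not a further result.

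**Figure D4:**
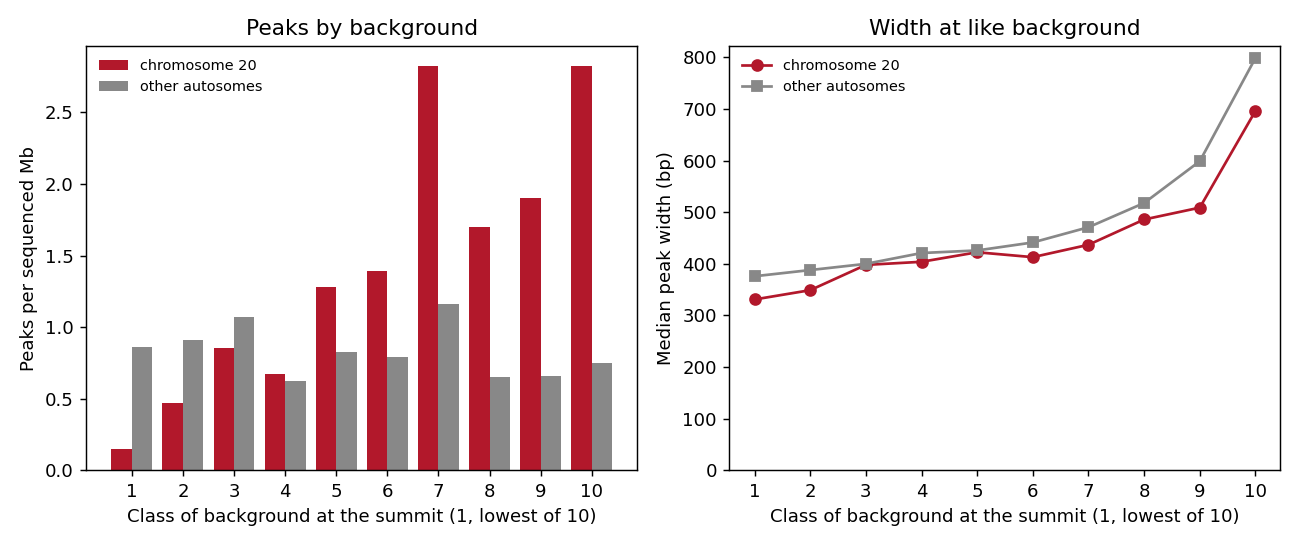
Peaks per sequenced Mb (left) and median peak width in bp (right) in 10 classes of background at the summit, for chromosome 20 and the other autosomes. Chromosome 20 has fewer peaks per Mb in classes 1 to 3 and more from class 4 up, and its peaks are narrower than those of the other autosomes in each class, by the least in class 3 (398 and 400 bp).

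The excess of peaks held among strongly enriched ones. Of the 837 peaks, 201 (24.0%) had at least 20-fold enrichment, against 20.2% on the other autosomes. This share ranked 3 of 22, below those of chromosomes 16 (28.8%) and 19 (24.8%). The density of such peaks was 2.02 times that elsewhere (1.74 to 2.32). At 10-fold or more the ratio was 1.78 (1.63 to 1.94), and at 30-fold or more 2.12 (1.67 to 2.66). At 40-fold or more, with 22 peaks, it was 1.67 (1.04 to 2.56). The arms had like shares at 20-fold, with 71 peaks (24.2%) on 20p and 130 (23.9%) on 20q. By band, the share ran from 11.4% of 35 peaks in 20p11.23 to 42.9% of 42 in 20q13.32, with 45.5% in the small band 20q13.11 (11 peaks) and 1 of 1 in 20q11.1.

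**Figure D5:**
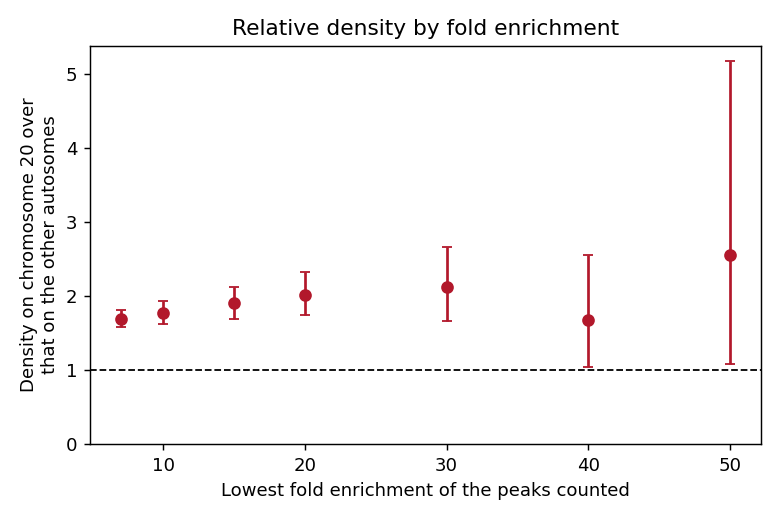
Density of peaks on chromosome 20 divided by that on the other autosomes (vertical, with exact 95% intervals) for peaks of at least the fold enrichment on the horizontal axis. The ratio is 1.69 for all peaks and 2.12 at 30-fold or more. Intervals are wide at 40-fold (1.67) and at 50-fold (2.55, 1.08 to 5.18, 8 peaks).

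The single peaks of highest enrichment were spread over the chromosome. The first was in 20p13 (chr20, 2169415 to 2170159), with a pileup of 132 over a background of 1.16 fragments and 61.5-fold enrichment. It ranked 19 among autosomal peaks. The others were in 20p12.1 (16910769 to 16911571, 61.0-fold), 20p11.23 (20224549 to 20225262, 59.8-fold), 20q13.2 (50660472 to 50661376, 58.0-fold) and 20q11.23 (36957553 to 36958853, 57.0-fold). All 5 had pileups of 119 to 141 and a background of 1.01 to 1.45, and 3 of them lay on 20p.

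By pileup, the tallest peak stood apart in the pericentromeric band 20q11.1 (28260809 to 28261952). It had 238 fragments over a background of 3.95, was 1144 bp wide and ranked 9 among autosomal peaks. It was the only peak on a contig of 0.234 Mb that lies between gaps of the assembly. The next were in 20q13.33 (60586332 to 60587769, 176 fragments), 20q13.32 (57572940 to 57574320, 173), 20q11.23 (35485790 to 35486647, 155) and 20p12.3 (6137471 to 6138331, 148). Their background was 3.15, 3.68, 3.15 and 2.04 fragments.

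The 3 widest peaks were neighbours in 20q11.21, at the start of a contig. The first began 102 bases into it (29267672 to 29275174, 7503 bp), the second followed (29275364 to 29279859, 4496 bp), and the third was the widest (29279915 to 29295037, 15123 bp). Only 55 bp separated the last pair, the closest on the chromosome. The next closest pairs both lay in 20p11.21. The pair 84 bp apart (23533590 to 23534091) was of narrow peaks, 213 and 205 bp wide, the latter the narrowest of the chromosome. The pair 112 bp apart (23083419 to 23084827) had widths of 491 and 806 bp. In the 3 widest peaks the background was 6.92, 7.86 and 5.94 fragments. The first and second of these values were among the 3 highest of the chromosome. Enrichments in the same 3 peaks were moderate, at 9.72, 8.69 and 15.6-fold. Without these 3 peaks the mean width on chromosome 20 was 0.990 times that of the other autosomes, where it was 1.05 times with them, and the ratio of medians stayed at 1.04. The next in width were in 20q13.31 (55533832 to 55535918, 2087 bp, background 3.77) and 20q13.33 (60517324 to 60519279, 1956 bp). The last combined a large width with the lowest background of the list, 0.460, and a pileup of 29. Among the peaks of highest background, 1 was on the short arm, in 20p11.21 (23116821 to 23117888), with 7.39 fragments.

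The outermost peaks of the arms were low at the tips and tall beside the centromere. At the tips, the first on 20p, at 105140 to 105543 in 20p13, had 22 fragments and was 9.78-fold enriched. The last on 20q, at 62334623 to 62335192, had 25 fragments and was 14.3-fold enriched. Beside the centromere, the last on 20p, at 26064850 to 26066161 in 20p11.1, had 95 fragments, was 1312 bp wide and 21.7-fold enriched. The first on 20q was the tallest peak of the chromosome, described above.

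Relations among peaks were like those elsewhere. Pileup rose with background (rho = 0.560 over 837 peaks, 0.561 on the other autosomes) and width with fold enrichment (0.528 and 0.559), while fold enrichment hardly moved with background (0.043 and 0.076). The lowest enrichment a listed peak may have forces part of the first relation.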

How the data were processed

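DNA of G0-arrested MCF10A cells from 3 samples was immunoprecipitated for 8-oxodG and sequenced. The submitters' processing notes name BWA, SAMtools, bedtools and hg18. The sources used here do not name the peak caller, its control or the way samples were pooled. The authors deposited 1 list with positions counted from 1, width in bp, pileup at the summit (a signal in fragments, per the file headers), fold enrichment, and p and q values as −log10. Reads per sample are unknown.

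The deposited fold, p and q had lost their decimal points. Points were placed so that a Poisson tail at the pileup, over the background that the fold implies, gave the p-value within 0.01, which succeeded for 23640 of 23641 peaks and all 837 on chromosome 20. On 2000 simulated rows it returned 100% of fold, p and q. The background is (pileup + 1) / fold − 1. On chromosome 20, 94.7% of backgrounds were whole multiples of 0.0315 fragments, within 0.02 of a step.

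Peaks past a chromosome end numbered 0 in hg18 and 157 in hg19. Peaks were placed by midpoint. Bands came from circlize 0.4.16 and sequenced contigs, the denominator of all densities, from IRanges 2.36.0 (R 4.3.3). The number of genes on each chromosome is that of RefSeq's table for GRCh38.p14, with no coordinates used. Windows were 1 Mb with at least 50% sequence. Intervals are exact Poisson for densities, exact binomial (Clopper-Pearson) for ratios and from binomial order statistics for medians. Python 3.11.15, numpy 2.4.6, pandas 2.3.3, scipy 1.17.1 and matplotlib 3.10.9 were used.

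Named regions were all bands of chromosome 20, the 5 peaks highest in fold, pileup and width, the 3 highest and 3 lowest in background, the 5 windows with most and with fewest peaks, the 3 longest peak-free stretches, the 3 closest pairs and the first and last peak of each arm. The chromosome, lists and alternatives were chosen with earlier results of these data known. No sequence of hg18 was used here.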

Additional observations from a re-analysis of the deposited data

How the results depend on the processing

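The density ratio of chromosome 20 to the other autosomes stayed above 1 in all 11 alternatives, and 5 lay within its counting interval. It was 1.82 with peaks of at least median fold enrichment, 2.02 of at least median −log10 q, 1.88 of at least median width, 1.84 without chromosomes 8, 16 and 19, 1.19 with counts divided by arm background, and 2.02 at 20-fold or more, an alternative added after seeing the data. The ratio of 20q to 20p was above 1 in all 11, moving to 1.71 with wide peaks and 1.79 for covered bases. Division by arm background could not move it, since the median background of both arms is the same. The background ratio was 1.35 for means, 1.36, 1.38 and 1.38 for peaks of at least median fold, −log10 q and width, 1.5 without chromosomes 8, 16 and 19 and 1.47 at the 10th percentile, the last added later. The pileup ratio was 1.195 and 1.225 for peaks of at least median −log10 q and width, and 1.04 within classes of background. Within such classes it restates the ratio of fold enrichment. The width ratio of 1.04 was 1.01 for peaks of at least median width, and reversed to 0.918 within classes of background and to 0.990 for means without the 3 widest peaks, added later. The causes were not tested, except that the last leaves out 3 peaks by construction. The variance-to-mean ratio was 2.27 to 3.98 in 4 alternatives, within 1 SD over other autosomes. That SD is for windows of 1 Mb. It is no measure for the 2 outer values, 2.27 at 0.5 Mb and 3.98 at 2 Mb, since the ratio changes with window size. No sample could be left out, and no paired analysis was possible because the list holds no value per sample. The number of reads and mappability, unknown here, limit what low counts show.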

Other observations

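In the sparse dark bands 20p12.3 and 20p12.1, at 8.50 and 8.31 peaks per Mb, 38.2% of 34 and 36.7% of 49 peaks reached 20-fold enrichment, and the median fold enrichment was 14.5 (interval 8.81 to 24.3) and 13.5 (9.56 to 20.2). The light band 20p11.23 between 20p12.1 and 20p11.22 had 10.3 peaks per Mb, a median fold of 9.97 (9.26 to 13.5) and 11.4% at 20-fold. These intervals overlap, and the bands were singled out after their values were seen.

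The tallest peak of the chromosome, in 20q11.1, began 227578 bases into a contig of 0.234 Mb, near its end, and the 3 widest lay at the start of the next contig. The contig from 34380500 also had a peak near its start, 1181 bases in. Whether sequence missing from the assembly bears on these peaks was not tested.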
